A study of Drosophila melanogaster with 12 samples.

Results

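The introns described here are those that carry an antisense label in the authors' deposited table of intron retention in Drosophila melanogaster wing discs. The authors listed 17817 introns, and each row has a label for what lies around it. A row was taken when its label held "anti-over" or "anti-near" and did not hold "known-exon", which gave 11389 introns, or 63.9% of all. Of these, 781 introns in 461 host genes are labelled anti-over, alone (205) or together with anti-near (576), and 10608 introns in 3685 host genes are labelled anti-near only. The choice used the label alone and no measured value. The others are 5236 introns labelled clean and 1192 that overlap a known exon.

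Total RNA depleted of ribosomal RNA was sequenced from 12 pools of 150 wing discs each, which are the larval epithelia that give rise to the wing and the notum around its base. Larvae were in the third instar and had been laid as eggs 7 days earlier, and the labels call the 4 pools of each group biological replicates. All 3 groups carried nub-Gal4, a driver active in the wing pouch, with UAS-mRFP, a red fluorescent reporter. The first group carried in addition RNAi against ecd and against Xrp1 (ecd plus Xrp1 RNAi), the second RNAi against ecd (ecd RNAi), and the control no RNAi. None of the 12 pools carried Xrp1 RNAi alone, so its effect without ecd RNAi cannot be seen here. The discs also held tissue outside the driver's domain, so every value is a mixture of cells with and without the transgenes. The product of ecd works with Prp8, a protein at the core of the spliceosome, and Xrp1 encodes a bZIP transcription factor of the stress response. The comparisons ask how intron retention in these genes differed with ecd RNAi and when Xrp1 RNAi was added to it.

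An intron is retained when it stays in the RNA after the exons on both sides should have been joined. Fly genes lie close together, often on opposite strands, so that neighbours may face each other, share a start region or sit one inside the intron of the other. A read that falls in such an intron can stem from the unspliced host transcript or from the gene on the other strand, and only strand information tells them apart. The libraries were made with a stranded kit, but the sources used here do not give whether the retention or expression values used strand. The retention ratio is a fraction from 0 to 1, given as the authors' mean per group, and reads of an antisense gene cannot be told apart from retention where the 2 overlap. Each intron is called higher or lower here when the authors' adjusted p for that comparison is under 0.05.

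The targeted genes were checked in the expression table, which holds normalized counts. In ecd plus Xrp1 RNAi discs, ecd transcripts stood at 1825, 1766, 1696 and 1699 normalized counts. Libraries with the ecd RNAi label gave 1982, 1687, 1423 and 1521, and control libraries 1654, 1494, 1421 and 1420.3. The ranges overlapped and the transcript was not lower under the ecd RNAi label (log2 fold change against control 0.13 ± 0.09, limma adjusted p = 0.251), so every direction below rests on the labels. Xrp1 transcripts averaged 5084 ± 772 normalized counts with ecd plus Xrp1 RNAi, 20882 ± 1745 with ecd RNAi and 4812 ± 252 in control (SD, n = 4 each). Normalized counts summed to 26500844 to 35397850 per library. Wing disc markers (nub, vg, ap, sd and wg, all 5 detected in every library) summed to 43225 to 47265 normalized counts with ecd plus Xrp1 RNAi, 33261 to 40806 with ecd RNAi and 42137 to 48541 in control. Adult muscle precursor markers (twi, Him, htl, stumps and kon, 5 of 5 found) summed to 5318 to 5744 with ecd plus Xrp1 RNAi, 3476 to 4254 with ecd RNAi and 4918 to 5521 in control. Trachea markers (3 of 3 found) summed to 3726 to 4114, 2978 to 3428 and 3459 to 3920.1 in the same order. The sums of these 3 lists were thus below those of all other libraries in every ecd RNAi library. Hemocyte markers (5 of 5 found) summed to 944 to 1167, 1268 to 1502 and 950.1 to 1804, and neuron markers (3 of 3 found) to 471 to 614, 537 to 1006 and 402 to 769.97. The part of these differences in the results below was not tested. Fat body markers (7 of 7 found, at most 1 at 0 in a library) summed to 1694 to 2767 with ecd plus Xrp1 RNAi, 1133 to 25999 with ecd RNAi and 1216 to 72083 in control, with the high sums in replicates 3 and 4 of the last 2 groups.

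The labels were compared with the BDGP6 annotation (Ensembl), in which all 17817 introns were found. All 781 anti-over introns had a gene on the other strand over them, and in 449 an exon of that gene covered a part of the intron, with a median of 7.63% of its length. None of the 10608 anti-near only introns overlapped such a gene, and the nearest one lay 1 to 4996 nt away, with a median of 1115 nt. Among the clean introns, 10 overlapped an antisense gene. The nearest antisense gene was protein-coding for 55.4% of the anti-over and 86.0% of the anti-near only introns, a noncoding RNA gene for 26.5% and 7.30%, and an annotated transposable element for 15.5% and 5.64%.

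The 2 classes differ in build. Anti-over introns were long, with a median of 1336 nt and a longest of 132737 nt, while the median was 64 nt for anti-near only and 104.5 nt for clean introns. Of the anti-over introns, 310 held a whole antisense gene, 338 lay inside one, and 133 were overlapped at 1 end. Those that held a gene had a median length of 12460 nt and those inside one 65 nt. First introns made up 41.9% of the anti-over, 26.9% of the anti-near only and 16.9% of the clean introns. The authors' base mean, taken here as a measure of the reads behind an intron, had medians of 37.9, 37.2 and 37.9 in the 3 classes. Introns are not independent, since alternative introns of 1 gene share reads: the 781 form 694 and the 10608 form 10183 groups of overlapping introns.

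Retention ratios were low in most introns of both classes. The median of the authors' mean ratios of anti-over introns was 0.0958 with ecd plus Xrp1 RNAi, 0.0925 with ecd RNAi and 0.0836 in control. Anti-near only introns had medians of 0.0756, 0.0789 and 0.0659 in the same order, and clean introns 0.0722, 0.0713 and 0.0660. A ratio of 0.5 or more was found for 58, 53 and 56 anti-over introns and for 79, 94 and 79 anti-near only introns, again in that order. In control these are 7.17% of the anti-over, 0.745% of the anti-near only and 1.28% of the clean introns. The difference of ecd RNAi minus control had a median of 0.00700 in anti-over, 0.0110 in anti-near only and 0.00482 in clean introns, and it was above 0 for 62.6%, 66.4% and 57.8% of them.

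**Figure D1:**
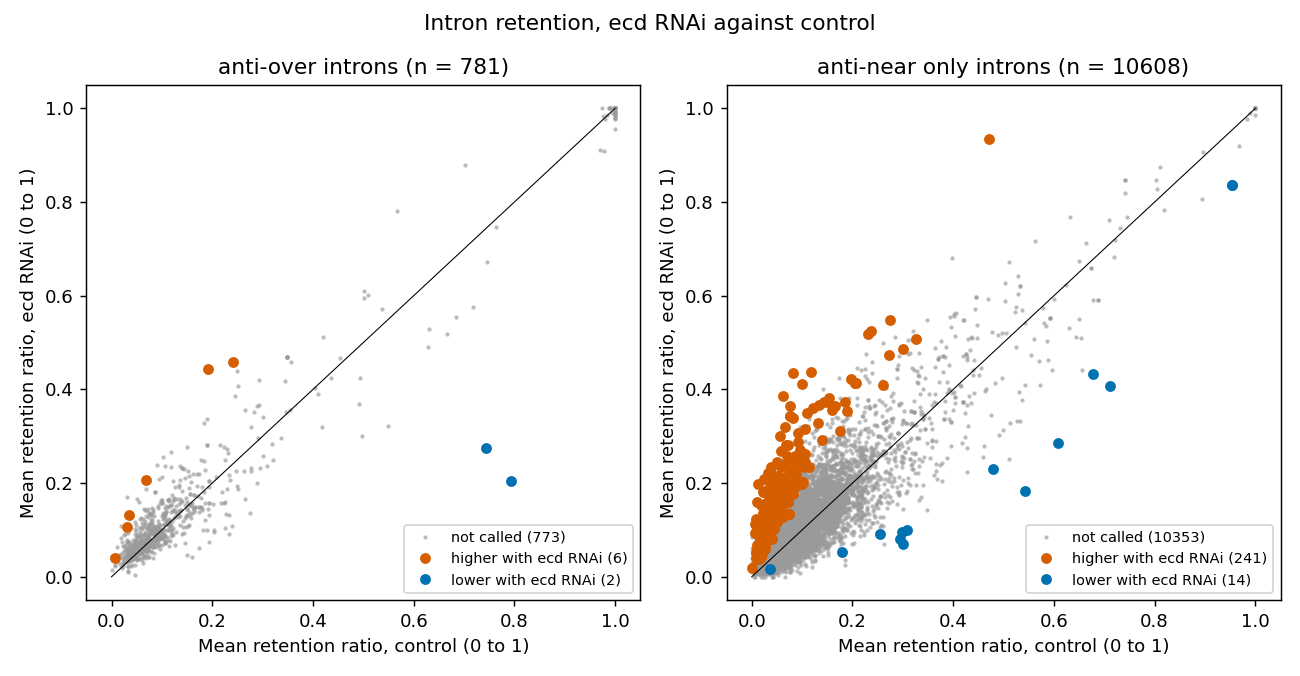
Mean retention ratio with ecd RNAi (vertical axis, 0 to 1) against control (horizontal axis, 0 to 1) for each of 781 anti-over introns (left) and 10608 anti-near only introns (right). Coloured points passed the authors' adjusted p: 6 anti-over introns lie above and 2 below the line of equal ratios, against 241 and 14 anti-near only introns, and a cluster of uncalled anti-over introns sits at ratios near 1 in both groups.

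The anti-over introns with high ratios were mostly short introns of little-expressed genes that lie inside a gene on the other strand. Most also had a low base mean. All introns were split by base mean into 4 ranges that each held about as many. The lowest range (22.7 or less) held 46 anti-over introns with a ratio of 0.5 or more in control, and the next ranges held 6, 4 and 0. In control, 40 anti-over introns had a ratio of 0.9 or more. All 40 lay inside an antisense gene, and 37 were under 100 nt long. Levels were expressed per 1000 exon bases, and the highest was taken where several antisense genes overlapped an intron. The level of the host in control was below that of the antisense gene for 39 of the 40. Median levels were 2.75 normalized counts for hosts and 1606 for antisense genes. Where both genes had a level, the host was below the antisense gene for 10 of 16 introns with a ratio of 0.5 to 0.9, 69 of 211 with a ratio of 0.1 to 0.5 and 91 of 395 with a ratio under 0.1. Of the anti-over introns with a ratio of 0.5 or more in control, 48 had no annotated antisense exon over them (14.5% of 332). Another 8 had one (1.78% of 449). For those 48, the exon bases behind the antisense level lie outside the intron. These are descriptions over introns that share genes, and the part of antisense reads in the ratios was not tested.

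Examples at a ratio of 1 in control are CG34300 and CG7912, and no annotated antisense exon lies over their introns described here. The 2 overlapping forms of intron 2 of CG34300 (chr3R:30306292-30306347 and chr3R:30306295-30306347, minus strand) lie within heca. Their authors' mean ratio was 1 with ecd plus Xrp1 RNAi, 0.993 with ecd RNAi and 1 in control. CG34300 was listed at 0, 0, 0 and 7.21 normalized counts in ecd plus Xrp1 RNAi discs, at 0, 36.1, 24.4 and 0 in ecd RNAi discs and at 0 in all 4 control libraries, while heca averaged 16996 ± 1898 (SD, n = 4) in control. Intron 5 of CG7912 (chr3R:30006723-30006784, minus strand) lies within Nlp, which encodes nucleoplasmin, and had a ratio of 1 in all 3 groups. CG7912 was listed at 0 in all 12 libraries, and Nlp averaged 12142 ± 893 in control. By contrast, only 1 of the 310 introns that hold a whole antisense gene had a ratio of 0.5 or more in control, and their median was 0.0794.

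**Figure D2:**
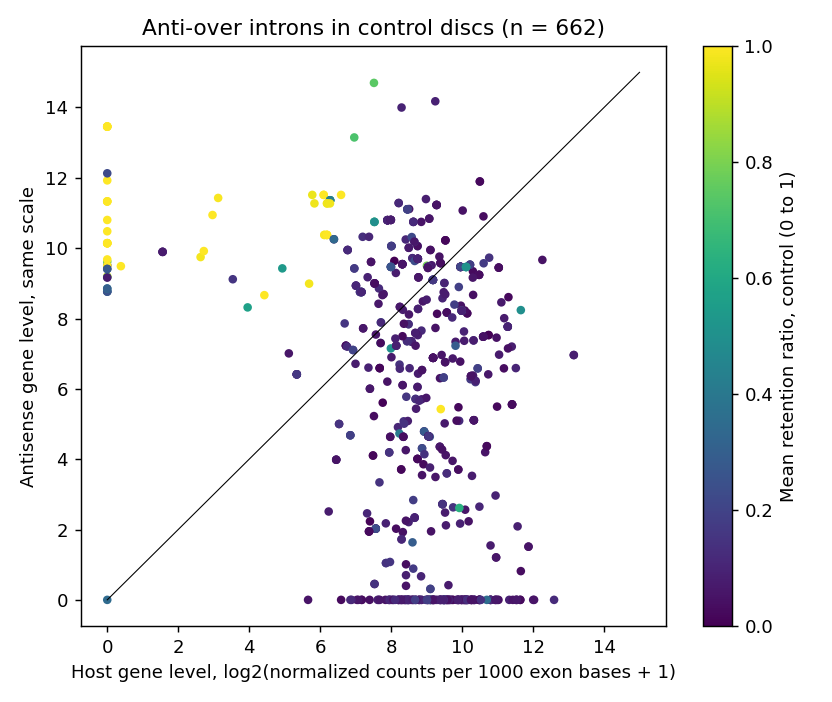
Level of the antisense gene (vertical axis) against that of the host gene (horizontal axis) in control discs, for the 662 anti-over introns with both values. Both are log2 of normalized counts per 1000 exon bases plus 1, and the highest level is shown where several antisense genes overlap an intron. Colour gives the control retention ratio, the line marks equal levels, and the introns at ratios of 0.9 or more lie above the line in 39 of 40 cases.

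With ecd RNAi against control, 8 anti-over introns were called. Of all 17817 introns, 2.32% were called, 2.18% as higher and 0.14% as lower. Of the 781 anti-over introns, the 8 are 1.02%, 6 higher and 2 lower. By length, 0 of 96 anti-over introns under 60 nt, 4 of 142 of 60 to 99 nt (2.82%) and 2 of 543 longer ones (0.368%) were called higher. Of the 5236 clean introns, 52 were called (0.993%), 50 higher and 2 lower. No test of the difference between classes was run, since introns of a gene share reads. Of the 6 that were higher, 5 lay inside the antisense gene. None of the 310 introns that hold a whole antisense gene was called in any comparison, and all of them were 403 nt or longer. Of clean introns of 100 nt or longer, 0.303% were called with ecd RNAi against control. With ecd plus Xrp1 RNAi against control and between the RNAi groups it was 0.0757% each. A count of 0 is near these shares. The 8 introns are described one by one, in order of their arrangement.

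Both called introns at the locus of MRP and Pih1D1 overlap each other on opposite strands. MRP encodes an ABC transporter of the multidrug-resistance family, and Pih1D1 a protein of the R2TP chaperone complex. Intron 1 of MRP (chr2L:12719241-12722354, plus strand, 3114 nt) spans the start of Pih1D1, whose exons cover 9.73% of it. The authors' mean ratio was 0.752 with ecd plus Xrp1 RNAi, 0.204 with ecd RNAi and 0.793 in control. In the authors' deposited table the adjusted p was 6.97e-21 for ecd RNAi against control and 1.91e-17 for ecd plus Xrp1 RNAi against ecd RNAi, and 0.871 for ecd plus Xrp1 RNAi against control. This intron was the only anti-over intron called between the RNAi groups, where 0.208% of all introns were called, 0.0786% as higher and 0.129% as lower.

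Intron 2 of Pih1D1 (chr2L:12718057-12721450, minus strand, 3394 nt) spans the start of MRP in turn. Its authors' mean ratio was 0.282 with ecd plus Xrp1 RNAi, 0.459 with ecd RNAi and 0.240 in control, and the authors' deposited table gives an adjusted p of 0.00203 for ecd RNAi against control. The ratios of the 2 introns thus moved in opposite directions with ecd RNAi.

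Expression of both genes was higher with ecd RNAi. MRP transcripts stood at 4247, 4217, 4224 and 4961 normalized counts in ecd plus Xrp1 RNAi discs, at 16384, 15016, 14741 and 11972 in ecd RNAi discs and at 3929, 4067, 3807 and 3925 in control. All 4 ecd RNAi libraries were above all 8 others, and the log2 fold change on the log2(value + 1) scale was 1.88 ± 0.09 (SE) for ecd RNAi against control and -1.71 ± 0.09 between the RNAi groups (limma adjusted p = 3.8e-09 and 9.6e-09). Pih1D1 stood at 2947, 3029.8, 2844 and 3219 in ecd plus Xrp1 RNAi discs, at 4342, 4214, 4074 and 4208 in ecd RNAi discs and at 3276, 3213, 3082 and 3130.0 in control. Here too the ecd RNAi libraries did not overlap the others, with log2 fold changes of 0.41 ± 0.05 and -0.48 ± 0.05 (limma adjusted p = 1.6e-05 and 4.6e-06). Per 1000 exon bases, the mean MRP level was 577 with ecd plus Xrp1 RNAi, 1899 with ecd RNAi and 514 in control, and that of Pih1D1 was 686, 959 and 723. MRP was therefore above Pih1D1 with ecd RNAi and below it in both other groups. In bulk discs, more RNA per cell and more cells of a kind cannot be told apart, here and for every gene below.

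The other intron that was lower is intron 5 of CG31793 (chr2L:19007978-19008032, plus strand, 55 nt). Its end is overlapped by RpL30, a ribosomal protein gene on the minus strand, whose exons cover 3.64% of the intron. Its authors' mean ratio was 0.488 with ecd plus Xrp1 RNAi, 0.274 with ecd RNAi and 0.743 in control, with an adjusted p of 1.17e-04 for ecd RNAi against control in the authors' deposited table. CG31793 stood at 662, 612, 605 and 511 normalized counts in ecd plus Xrp1 RNAi discs, at 1972, 2085, 2149 and 1923 in ecd RNAi discs and at 626, 720.3, 998 and 969 in control. The ecd RNAi libraries were above all others (log2 fold change 1.32 ± 0.14, limma adjusted p = 4.9e-06). RpL30 averaged 20286 ± 2587 with ecd plus Xrp1 RNAi, 22520.3 ± 2119.9 with ecd RNAi and 21383 ± 1554 in control, and the groups overlapped (log2 fold change 0.07 ± 0.10, limma adjusted p = 0.599). Both anti-over introns that were lower thus sat in hosts whose transcripts were higher.

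**Figure D3:**
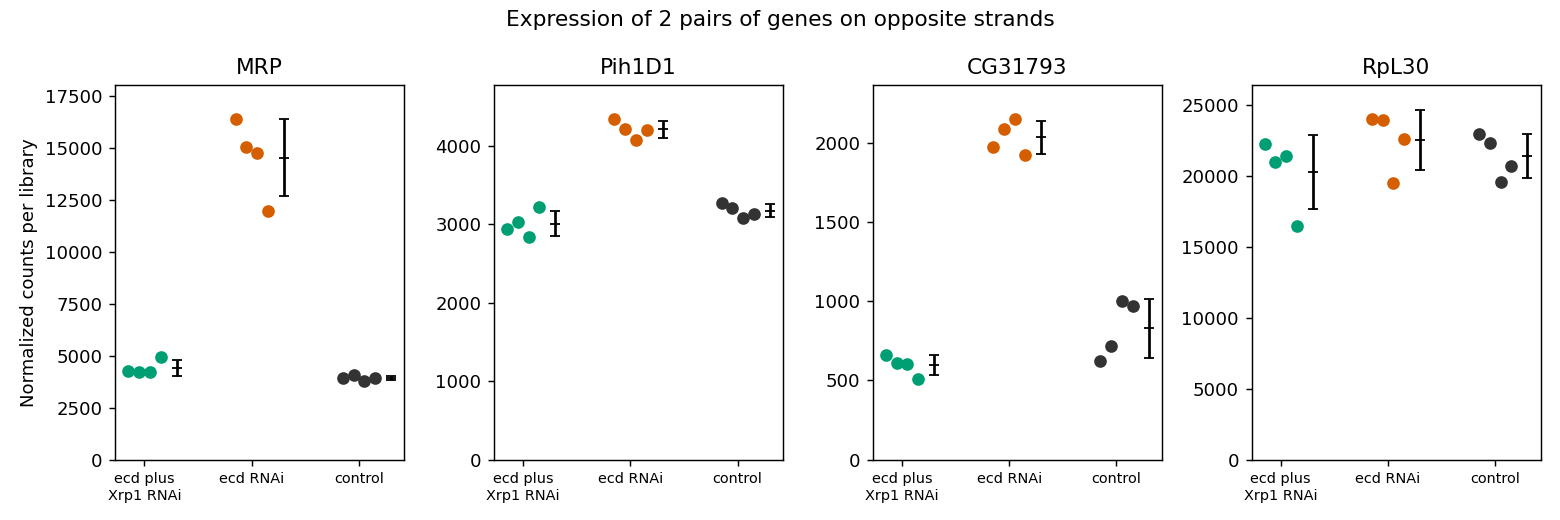
Normalized counts per library (vertical axes, starting at 0) of MRP, Pih1D1, CG31793 and RpL30 in the 3 groups. Points are the 4 libraries of a group and bars the mean ± SD: the ecd RNAi libraries stand above all others for MRP, Pih1D1 and CG31793, and the groups overlap for RpL30.

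The other 5 anti-over introns that were higher with ecd RNAi were short introns inside an antisense gene. The one with the largest difference was the only intron of Ufm1, which encodes a ubiquitin-like modifier (chr2R:16952054-16952151, plus strand, 98 nt). It lies within mute, a gene of the histone locus body, and had an authors' mean ratio of 0.338 with ecd plus Xrp1 RNAi, 0.445 with ecd RNAi and 0.191 in control (adjusted p = 0.00124 for ecd RNAi against control in the authors' deposited table). Ufm1 transcripts stood at 632, 615, 622 and 589 normalized counts in ecd plus Xrp1 RNAi discs, at 433, 399.7, 301 and 336 in ecd RNAi discs and at 673, 662, 538 and 610.0 in control. The ecd RNAi libraries were below all others, by -0.76 ± 0.11 in log2 fold change against control (limma adjusted p = 8.5e-05). For mute the libraries of ecd RNAi and control overlapped, with means of 2714 ± 194 and 2768 ± 57.5.

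Intron 1 of DNAlig3, the gene of a DNA ligase, lies within Sol1 (chr3R:12401320-12401393, minus strand, 74 nt). Its authors' mean ratio was 0.110 with ecd plus Xrp1 RNAi, 0.131 with ecd RNAi and 0.0340 in control, with an adjusted p of 0.00901 for ecd RNAi against control in the authors' deposited table. DNAlig3 stood at 506, 566, 545 and 575 normalized counts in ecd plus Xrp1 RNAi discs, at 2055, 1783, 1916 and 1745 in ecd RNAi discs and at 811, 931, 814 and 821 in control. The 3 groups did not overlap, and against control the log2 fold change was 1.15 ± 0.07 with ecd RNAi and -0.62 ± 0.07 with ecd plus Xrp1 RNAi (limma adjusted p = 5.0e-08 and 2.7e-04). Sol1 was low, at 35.6 ± 13.4 with ecd plus Xrp1 RNAi, 222 ± 57.8 with ecd RNAi and 54.4 ± 4.82 in control, and was higher with ecd RNAi by 1.98 ± 0.27 in log2 fold change (limma adjusted p = 5.0e-05).

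CG6878 intron 1 (chr3L:15162134-15162256, plus strand, 123 nt, within CG7011) had authors' mean ratios of 0.110 with ecd plus Xrp1 RNAi, 0.208 with ecd RNAi and 0.0684 in control, and hdly intron 2 (chr3R:20926103-20926164, plus strand, 62 nt, within CG31191) had 0.0542, 0.107 and 0.0302. In the authors' deposited table their adjusted p for ecd RNAi against control was 1.26e-04 and 0.00983. CG6878 averaged 314 ± 28.3 normalized counts with ecd plus Xrp1 RNAi, 289 ± 36.7 with ecd RNAi and 299 ± 16.9 in control, and the groups overlapped. CG7011 averaged 926 ± 89.1, 712 ± 108 and 981 ± 51.6 and was lower with ecd RNAi (log2 fold change -0.47 ± 0.11, limma adjusted p = 0.0026). The host hdly averaged 2796 ± 64.7, 3264 ± 126 and 3332 ± 124, with ecd RNAi and control overlapping. It was lower with ecd plus Xrp1 RNAi than in control (-0.25 ± 0.05, limma adjusted p = 0.0077) and than with ecd RNAi (-0.22 ± 0.05, limma adjusted p = 0.0014). CG31191 averaged 130 ± 26.4, 245 ± 106 and 148 ± 78.7 (limma adjusted p = 0.130 for ecd RNAi against control). The last of the 5 is intron 4 of nudC, a partner of the dynein motor (chr3L:16819305-16819367, plus strand, 63 nt, within CG13024), at ratios of 0.00853, 0.0394 and 0.00751. It was named after its values were seen. Its difference of 0.0319 between ecd RNAi and control is the smallest of the 6, and it was not called when a difference of 0.05 or more was required. Transcripts of nudC averaged 3241 ± 133 with ecd plus Xrp1 RNAi, 2181 ± 285 with ecd RNAi and 2786 ± 123 in control (log2 fold change of ecd RNAi against control -0.36 ± 0.08, limma adjusted p = 0.0024). The antisense CG13024 averaged 231 ± 64.6, 755 ± 146 and 370 ± 104 in the same order. It was higher with ecd RNAi than in control by 1.05 ± 0.23 and differed by -1.72 ± 0.23 between the RNAi groups (limma adjusted p = 0.0019 and 4.75e-05), and its part in the ratio was not tested.

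Against control, ecd plus Xrp1 RNAi gave a single called anti-over intron, where 1.26% of all introns were called, 1.19% as higher and 0.0674% as lower. This was intron 2 of CG8366, named after its values were seen (chr2R:15955517-15955573, plus strand, 57 nt). It lies within Strn-Mlck, a large gene of muscle proteins. Its authors' mean ratio was 0.150 with ecd plus Xrp1 RNAi, 0.108 with ecd RNAi and 0.0193 in control, and the adjusted p in the authors' deposited table was 0.0356 for ecd plus Xrp1 RNAi and 0.103 for ecd RNAi, each against the same control libraries. CG8366 transcripts stood at 513 ± 17.5, 445 ± 69.1 and 457 ± 32.2 normalized counts in these groups.

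**Figure D4:**
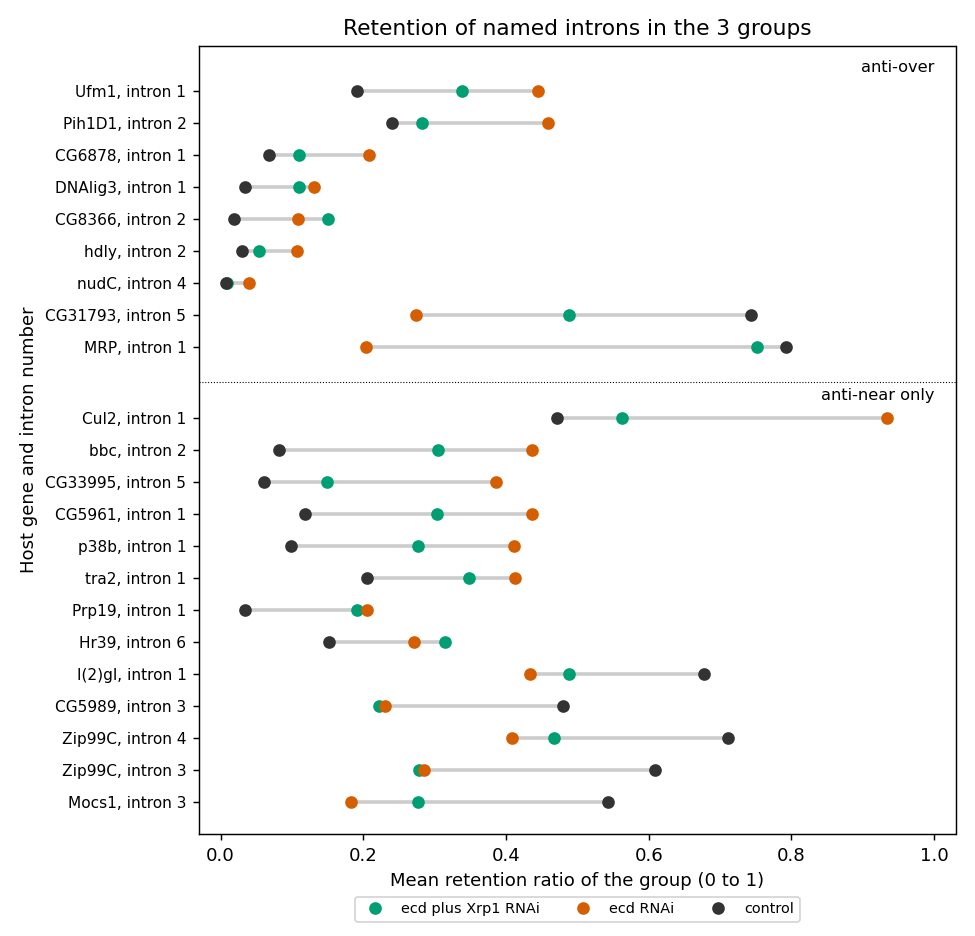
Mean retention ratio (horizontal axis, 0 to 1) of a part of the named introns with ecd plus Xrp1 RNAi, ecd RNAi and in control. Shown are all called anti-over introns, those that rose or fell most with ecd RNAi against control, and called introns of the gene lists. Anti-over introns lie above the dotted line and anti-near only introns below it. Points are the authors' group means and the grey line joins the lowest and the highest: MRP intron 1 stands at 0.752, 0.204 and 0.793 and Cul2 intron 1 at 0.563, 0.934 and 0.472.

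Anti-near only introns followed next. With ecd RNAi against control 255 of the 10608 (2.40%) were called, 241 higher and 14 lower, beside 2.32% of all introns. With ecd plus Xrp1 RNAi against control it was 155 (1.46%), 146 higher and 9 lower, beside 1.26%. These shares are near those of all introns, of which the class itself makes up 59.5%. In the same order, 0.993% and 0.477% of clean introns were called, and 8.22% and 3.61% of introns that overlap a known exon. The classes were not tested against each other. With ecd RNAi, 2.61% of anti-near only and 1.04% of anti-over introns under 60 nt were called. At 60 to 99 nt it was 144 of 4631 (3.11%) and 4 of 142 (2.82%), and at 100 nt or longer 1.06% and 0.552%. With ecd plus Xrp1 RNAi, 93 of 4631 (2.01%) and 0 of 142 introns of 60 to 99 nt were called. Of the anti-over introns, 69.5% were 100 nt or longer, and the part of length was not tested. The 2 comparisons share the control libraries, so their calls are not independent. Between ecd plus Xrp1 RNAi and ecd RNAi 17 introns were called (0.160%), 5 higher and 12 lower.

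The 241 introns that were higher with ecd RNAi lie in 216 genes and form 235 groups of overlapping introns. Their median ratio was 0.111 with ecd plus Xrp1 RNAi, 0.153 with ecd RNAi and 0.0408 in control. First introns made up 48.5% of them and 26.9% of the class. They lay closer to the antisense gene, at a median of 725 nt, against 1132 nt for introns not called, and had more reads, with a median base mean of 65.1 against 36.8. More reads make a call easier, and over 4 ranges of base mean that each held about as many introns the share called higher was 0.559%, 1.48%, 2.27% and 4.88%, from the lowest to the highest.

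By position, 117 of 2855 first introns (4.10%) and 124 of 7753 later introns (1.60%) were higher with ecd RNAi. By length, it was 2.45% of introns under 60 nt, 3.02% of those of 60 to 99 nt and 0.893% of longer ones. The share was 7.13% among first introns of 60 to 99 nt, where it was 8.82% (9 of 102) among clean introns of the same position and length. For later introns of that length it was 1.90% of the anti-near only and 1.05% of the clean introns. First introns of 60 to 99 nt had the largest share in both classes, and those classes were not tested against each other.

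**Figure D5:**
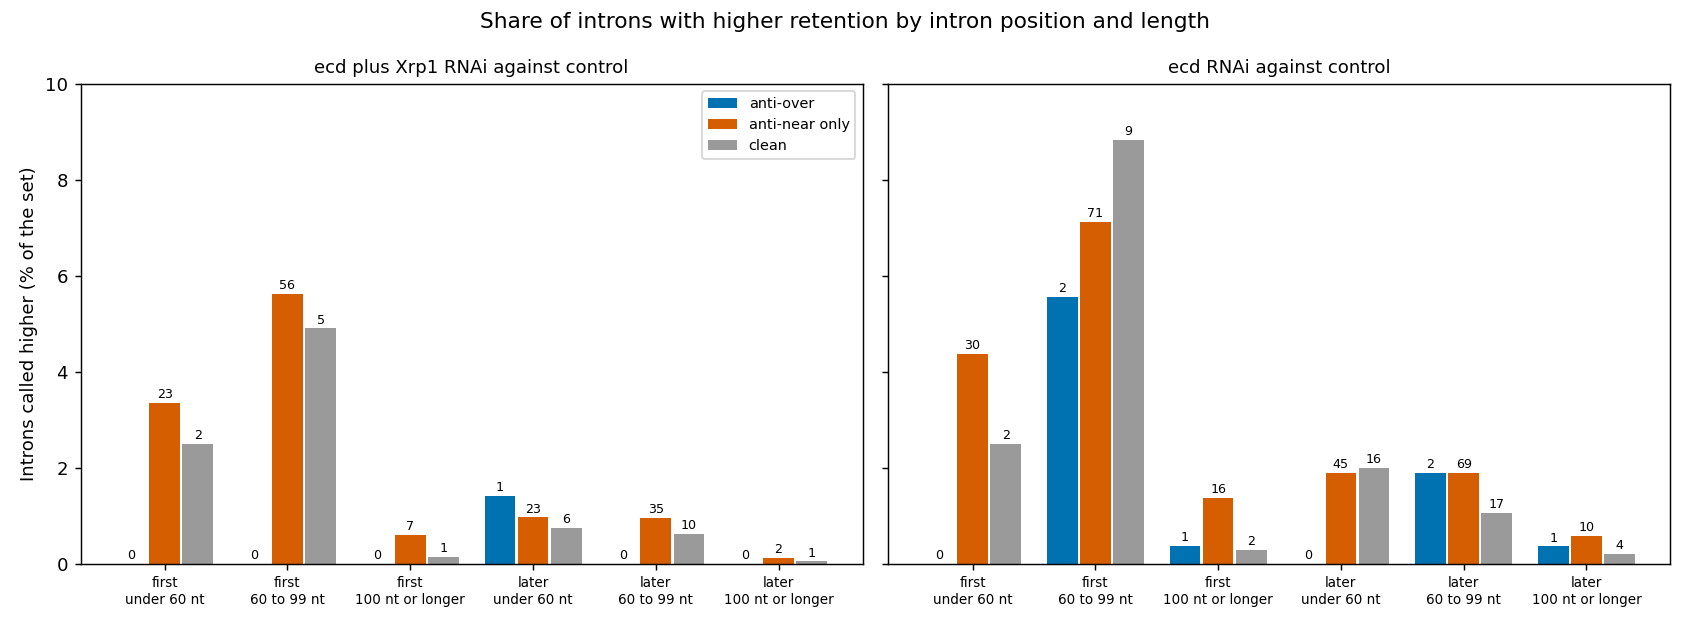
Share of introns called higher (vertical axis, percent of the set) against control with ecd plus Xrp1 RNAi (left) and ecd RNAi (right), by first or later position and length, for anti-over, anti-near only and clean introns. The number over a bar is the count of introns called, and first introns of 60 to 99 nt reach 7.13% of anti-near only and 8.82% of clean introns with ecd RNAi.

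The share also differed by where the antisense gene lay. It was 3.31% of 4020 introns whose nearest antisense gene lay on the 5′ side and 1.64% of 6588 with the gene on the 3′ side. By distance to that gene it was 3.89% under 500 nt, 2.87% from 500 nt, 1.63% from 1000 nt and 1.22% from 2000 nt on. First introns lie near their gene's start, and they made up 48.5% of the 5′ and 13.8% of the 3′ introns. Within first introns the shares were 4.26% on the 5′ side and 3.75% on the 3′ side, and 5.49%, 4.13%, 3.04% and 1.88% over the 4 distances. Within later introns they were 2.41% and 1.30%, and 2.53%, 2.08%, 1.34% and 1.13%. The order by distance was thus the same within both positions, and it was not tested.

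The largest difference of an anti-near only intron was that of intron 1 of Cul2, the gene of a cullin scaffold of ubiquitin ligases (chr2L:21658962-21659094, plus strand, 133 nt). The nearest antisense feature is an invader1 transposable element 1932 nt away. The authors' mean ratio was 0.563 with ecd plus Xrp1 RNAi, 0.934 with ecd RNAi and 0.472 in control, and the authors' deposited table gives an adjusted p of 6.51e-44 for ecd RNAi against control and 1.59e-31 between the RNAi groups. Cul2 transcripts stood at 2912, 3036, 2872 and 3205 normalized counts in ecd plus Xrp1 RNAi discs, at 18334, 16644, 16992 and 17342 in ecd RNAi discs and at 2911, 2925, 2824 and 2598 in control. All ecd RNAi libraries were above the others, by 2.62 ± 0.06 in log2 fold change against control (limma adjusted p = 4.3e-12). More transcript and a higher ratio thus occurred together at Cul2, while at MRP more transcript occurred with a lower ratio.

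The next 4 by size were introns of 61 to 102 nt. Intron 2 of bbc, which encodes a phospholipid-synthesis enzyme (chr2R:13491594-13491654, minus strand), had an authors' mean ratio of 0.305 with ecd plus Xrp1 RNAi, 0.436 with ecd RNAi and 0.0824 in control. Intron 5 of CG33995 (chr2L:5047480-5047542, plus strand) had 0.149, 0.386 and 0.0612, and intron 1 of CG5961 (chr3R:12459909-12459972, minus strand) had 0.303, 0.437 and 0.118. The intron of p38b, a stress-activated MAP kinase (chr2L:13780765-13780866, plus strand), had 0.277, 0.411 and 0.0993. In the authors' deposited table the adjusted p of ecd RNAi against control was 3.65e-08, 2.37e-19, 0.00122 and 3.09e-07 for these 4 in turn.

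Their hosts did not move one way. Transcripts of p38b averaged 1376 ± 52.9 normalized counts with ecd plus Xrp1 RNAi, 1199 ± 92.5 with ecd RNAi and 1469.5 ± 53.3 in control, and fell with ecd RNAi (log2 fold change -0.30 ± 0.06, limma adjusted p = 0.0014). CG33995 averaged 116 ± 8.54, 164 ± 20.0 and 119 ± 7.66 and was higher with ecd RNAi by 0.45 ± 0.12 (limma adjusted p = 0.0077), a call that was lost under quantile normalization (0.28, adjusted p = 0.226). CG5961 averaged 472 ± 32.7, 523 ± 21.4 and 447 ± 18.1 and was higher by 0.23 ± 0.07 (limma adjusted p = 0.0166), which was also lost under quantile normalization and without control replicate 2 (adjusted p = 0.0611 and 0.0535). For bbc, at 1896 ± 43.6, 1683 ± 132 and 1820.2 ± 34.5, the adjusted p was 0.109.

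Among the 14 anti-near only introns that were lower with ecd RNAi, intron 3 of Mocs1, a gene of molybdenum cofactor synthesis, had the largest difference (chr3L:11072411-11072469, plus strand, 59 nt). Its authors' mean ratio was 0.276 with ecd plus Xrp1 RNAi, 0.183 with ecd RNAi and 0.543 in control (adjusted p = 3.95e-04 for ecd RNAi against control in the authors' deposited table). Mocs1 stood at 408, 386, 372 and 436 normalized counts in ecd plus Xrp1 RNAi discs, at 1937, 1794, 1626 and 1544 in ecd RNAi discs and at 286, 304, 316 and 339 in control. The groups did not overlap, and the log2 fold change of ecd RNAi against control was 2.46 ± 0.09 (limma adjusted p = 3.1e-10).

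The next 3 by size lie in Zip99C, a metal transporter gene, and CG5989. Intron 3 of Zip99C (chr3R:29864351-29864412, minus strand) had authors' mean ratios of 0.278 with ecd plus Xrp1 RNAi, 0.285 with ecd RNAi and 0.609 in control, and its intron 4 (chr3R:29864137-29864194, minus strand) had 0.468, 0.408 and 0.711. Intron 3 of CG5989 (chr3L:8602854-8602914, minus strand), 462 nt from RpL14, a ribosomal protein gene, had 0.222, 0.231 and 0.479. None of these 3 introns was called between the RNAi groups. Zip99C transcripts averaged 474 ± 68.9 with ecd plus Xrp1 RNAi, 1006 ± 181 with ecd RNAi and 756 ± 153 in control. The call as higher with ecd RNAi (log2 fold change 0.42 ± 0.16, limma adjusted p = 0.0463) was lost under the replicate block over all libraries (adjusted p = 0.0592), but not with the block in control and ecd RNAi libraries alone (0.0020). It was also lost without control replicate 1 or 2, ecd RNAi replicate 1, 3 or 4 or ecd plus Xrp1 RNAi replicate 2 or 3 (adjusted p up to 0.136). CG5989 averaged 495 ± 26.8 with ecd plus Xrp1 RNAi, 687 ± 80.3 with ecd RNAi and 719 ± 95.5 in control.

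Intron 1 of l(2)gl, a tumour suppressor of cell polarity (chr2L:20016-21135, minus strand, 1120 nt), had authors' mean ratios of 0.488 with ecd plus Xrp1 RNAi, 0.434 with ecd RNAi and 0.678 in control. Its transcripts averaged 11871 ± 139, 13876 ± 446 and 11546 ± 247 normalized counts and were higher with ecd RNAi by 0.27 ± 0.05 in log2 fold change (limma adjusted p = 3.5e-04). The calls of this intron, both Zip99C introns and the CG5989 intron had adjusted p of 0.0147 to 0.0428 in the authors' deposited table, and all 4 were lost at a threshold of 0.01.

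Between ecd plus Xrp1 RNAi and ecd RNAi, the 12 anti-near only introns that were lower lay in 10 genes. Beside Cul2 and CG33995 they include introns 1 and 3 of CG4210. Intron 1 had authors' mean ratios of 0.221 with ecd plus Xrp1 RNAi, 0.533 with ecd RNAi and 0.396 in control, and intron 3 had 0.0870, 0.373 and 0.143. The other hosts, named after their values were seen, are kon, CG8031, Sans, MED19, Ref1, Bin1 and unc-13. Intron 5 of Sans, a scaffold protein gene (chr2R:12940083-12940151), had 0.0286, 0.235 and 0.0386. The intron of Bin1, the SAP18 homologue (chr3R:16186639-16186711), had 0.0332, 0.135 and 0.0235.

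Host expression differed widely among these genes. Transcripts of unc-13, a synaptic vesicle priming gene with 2 of the introns, stood at 11607, 11777, 11485 and 14497 normalized counts in ecd plus Xrp1 RNAi discs, at 61482, 59865, 60419 and 58303 in ecd RNAi discs and at 10486, 10810.0, 11848 and 12455 in control. Sans stood at 2279, 2176, 2026 and 2541 in ecd plus Xrp1 RNAi discs, at 605, 489.9, 347 and 635 in ecd RNAi discs and at 2662, 2659, 2491 and 2258 in control. In both genes the ecd RNAi libraries lay apart from all others, above them in unc-13 and below them in Sans. Bin1 averaged 1997 ± 162, 1841 ± 172 and 1842 ± 120 (limma adjusted p = 0.232 between the RNAi groups). Of the 10 hosts, 4 were called higher and 4 lower in expression with ecd plus Xrp1 RNAi relative to ecd RNAi alone. In this comparison 26.7% of all genes tested were called higher and 20.6% lower, and 36.8% and 19.5% of all tested anti-near only hosts.

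The 5 introns that were higher with ecd plus Xrp1 RNAi than with ecd RNAi are all alternative introns of verm, a chitin deacetylase gene, and they form 2 groups of overlapping introns. Their authors' mean ratios ran from 0.137 to 0.156 with ecd plus Xrp1 RNAi, from 0.0564 to 0.0669 with ecd RNAi and from 0.0697 to 0.0955 in control. Transcripts of verm averaged 7033 ± 413, 8571 ± 1111 and 6289.7 ± 1114 normalized counts (limma adjusted p = 0.0813 between the RNAi groups). Introns of 1 group share reads and all 5 lie in 1 gene, so they do not count as 5 observations. In the authors' deposited table, 2 of the 5 were also called higher with ecd plus Xrp1 RNAi against control (adjusted p = 0.0125 and 0.0177).

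Some members lie in genes of known pathways. Of 31 splicing factor genes listed, 15 held 34 member introns, none of them anti-over, and 3 were higher with ecd RNAi (2.18% of all introns were). They are intron 1 of Prp19, the ubiquitin ligase of the spliceosome (chr2R:18450826-18450889, minus strand), and 2 overlapping forms of intron 1 of tra2, the splicing regulator of sex determination (chr2R:14604129-14604196 and chr2R:14604139-14604196, minus strand), which have the same values. The authors' mean ratio was 0.191 with ecd plus Xrp1 RNAi, 0.205 with ecd RNAi and 0.0340 in control for Prp19, and 0.349, 0.413 and 0.206 for tra2. The Prp19 intron was called in both RNAi groups against the shared control, with adjusted p of 2.36e-07 for ecd plus Xrp1 RNAi and 6.87e-09 for ecd RNAi in the authors' deposited table. Prp19 transcripts averaged 2817 ± 71.6, 2171 ± 306 and 2689.7 ± 215 normalized counts and fell with ecd RNAi (-0.32 ± 0.09, limma adjusted p = 0.0113), and those of tra2 averaged 1218 ± 39.4, 1150.1 ± 138 and 1086 ± 21.3 (adjusted p = 0.433).

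The ecdysone response list held 16 member introns in 3 of 17 genes. None was called with ecd RNAi, and 1 was higher with ecd plus Xrp1 RNAi against control: intron 6 of the nuclear receptor gene Hr39 (chr2L:21257049-21257102, plus strand), at authors' mean ratios of 0.314 with ecd plus Xrp1 RNAi, 0.272 with ecd RNAi and 0.152 in control (adjusted p = 0.0166 in the authors' deposited table). None of 16 introns in 7 of 19 stress response genes and none of 22 introns in 7 of 19 wing patterning genes was called in any of the 3 comparisons. With 2.32%, 1.26% and 0.208% of all introns called with ecd RNAi against control, ecd plus Xrp1 RNAi against control and between the RNAi groups, counts of 0 or 1 in sets of this size say nothing particular about these genes.

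Host genes were then compared as sets, with expression called at a limma adjusted p under 0.05. With ecd RNAi against control 47.8% of 10179 genes tested were called, 22.4% higher and 25.4% lower. Of 435 tested hosts of anti-over introns, 254 were called (58.4%), 132 higher and 122 lower, and of 3661 tested hosts of anti-near only introns 2048 (55.9%), 824 higher and 1224 lower. Among the 213 tested hosts of anti-near only introns that were higher with ecd RNAi, 154 were called (72.3%), 41 higher and 113 lower, with a median log2 fold change of -0.24 beside -0.04 over all genes tested and -0.06 over all anti-near only hosts. The 10 hosts of the 14 introns that were lower went the other way, with 8 called higher and 0 lower and a median of 0.47. Hosts were not matched in expression level to all genes tested, and hosts of clean introns were not counted as a set. The ratio of retained to spliced reads and the host's expression stem from the same libraries and share reads, so the 2 measures are not independent.

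Without control and ecd RNAi replicates 3 and 4, which held the high fat body sums, 206 anti-over hosts and 1681 anti-near only hosts were called with ecd RNAi. That fit had fewer libraries and the share of all genes called in it was not taken. These counts can therefore not be set against 254 and 2048. The part of fat body in the retention ratios was not tested, since the ratios are given per group. Genes with an exon on the other strand over an anti-over intron numbered 508, of which 121 passed the filter on low values. In the fit to all libraries 43 of these were called (35.5%, beside 47.8% of all genes tested), 19 higher and 24 lower.

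With ecd plus Xrp1 RNAi against control, 4.39% of all genes tested were called, 2.29% higher and 2.1% lower. There 22 anti-over hosts (14 higher, 8 lower), 151 anti-near only hosts (73 higher, 78 lower) and 4 antisense partners (all lower) were called. These counts changed when single libraries were left out and with the method. The share of all genes called in those other fits was not taken. Without any 1 control library or without ecd plus Xrp1 RNAi replicate 1, 2 or 3, anti-over hosts called numbered 6 to 13, and without any 1 control library or ecd plus Xrp1 RNAi replicate 2 or 3 anti-near only hosts numbered 74 to 89. Both were lowest without ecd plus Xrp1 RNAi replicate 2. Partners numbered 1 or 2 without control replicate 1, 2 or 3 or ecd plus Xrp1 RNAi replicate 2 or 3, and 7 without ecd RNAi replicate 3. The authors' deposited table called 48, 320 and 11, and 296 anti-near only hosts were called under quantile normalization. Between the RNAi groups 47.3% of all genes were called, 26.7% higher and 20.6% lower with ecd plus Xrp1 RNAi. There 240 anti-over hosts (127 higher, 113 lower), 2060 anti-near only hosts (1347 higher, 713 lower) and 49 partners (28 higher, 21 lower) were called. The 3 comparisons share libraries in pairs.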

How the data were processed

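RNA of wing discs was sequenced in 12 samples, whose titles give the group and the replicate. Among tools, the submitters' processing notes list kallisto 0.46.1, cutadapt 3.5, DESeq2 and FastQC, without order or settings, and the build BDGP6. The labels differ on single or paired reads, and the sources used here do not name the tool behind the retention ratios.

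Per the file headers, the authors' deposited intron table gives retention ratios as a fraction per group mean, log2 fold changes, a base mean as a signal and adjusted p-values from DESeq2. Its log2 fold changes have the first-named group on top, control over RNAi, and are not printed; differences of ratios stand in for them. Its 12 columns of ratios per sample match no label and were left out, so limma on ratios, planned as an alternative, was not run and no error is given for a ratio. Members and gene lists were chosen with earlier results of these data known. Positions were made 1-based and matched to the annotation for antisense genes.

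The deposited normalized counts are a signal per gene made by the authors; 17869 of 23932 rows are genes. Genes with a mean of at least 10 (10179) were fitted as log2(value + 1) with limma 3.58.1 in R 4.3.3, with a term per group and Benjamini-Hochberg adjustment. The fit was tested on simulated data. Each adjusted p is from limma unless the authors' deposited table is named, and n is 4 per group. Nothing says which pools came from separate cultures, so p-values measure the spread between pools.

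The named introns are the 5 that rose and the 5 that fell most with ecd RNAi and the 3 with the highest control ratio in each class, the 3 that rose and the 3 that fell most between the RNAi groups, and called members in listed genes; ties at a ratio of 1 were broken by base mean. A part of these is described. Same-numbered libraries of ecd RNAi and control deviated together (r = 0.533, 0.412, 0.559 and 0.235 over genes), but so did differently numbered ones: r was 0.474 and 0.572 between replicates 1 and 2 and 0.508 and 0.564 between replicates 3 and 4. The split is replicates 1 and 2 against 3 and 4, the replicates with high fat body sums, so the data show no pairing by number beyond it. The block was still run as an alternative. For ecd plus Xrp1 RNAi, same-numbered libraries gave r = -0.347 to -0.131. Alternatives were other thresholds, filters, pseudocounts and normalization, left-out libraries, a replicate block and the authors' deposited expression table with its log2 fold changes and adjusted p-values. One antisense neighbour of a named intron is not reported here.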

Additional observations from a re-analysis of the deposited data

Results flagged for a closer look

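The scan covered 84 groups of 4 libraries, of 28 genes. They host or face introns named for ecd RNAi against control, as called anti-over introns or from the gene lists. Of these groups, 2 held a library far from the other 3, where chance flags about 1 in 20 groups. Genes of introns named only for a high control ratio or between the RNAi groups were not scanned, so stray libraries among them are not listed. MRP in ecd plus Xrp1 RNAi replicate 4 stood at 4961 normalized counts, above 4247, 4217 and 4224 in the other 3 libraries. DNAlig3 in control replicate 2 stood at 931 normalized counts, above 811, 814 and 821 in the other 3.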

How the results depend on the processing

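Ratios per library were not used, so no intron result has an error, and leaving out a library and pairing were tried for expression alone. With an adjusted p under 0.01 in the authors' deposited table, the called anti-near only introns numbered 128 (123 higher, 5 lower, beside 241 and 14) for ecd RNAi and 58 (58 higher, 0 lower, beside 146 and 9) for ecd plus Xrp1 RNAi, each against control, and the single anti-over call with ecd plus Xrp1 RNAi became 0. Anti-over introns under an antisense exon gave 3 calls with ecd RNAi and 0 with ecd plus Xrp1 RNAi. Introns with a ratio above 0 in all groups gave medians of 0.0962 (ecd plus Xrp1 RNAi) and 0.0929 (ecd RNAi) for 778 anti-over introns and of 0.0757, 0.0791 and 0.0661 (control) for 10573 anti-near only introns. Counting overlapping introns once, added after seeing the data, left 8 and 248 calls with ecd RNAi. Of 110 values of named introns, 95 kept their call and 15 lost it, 14 of them at the stricter threshold.

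Host counts for ecd plus Xrp1 RNAi against control depended most on the setting. Anti-over hosts numbered 48, anti-near only hosts 320 and antisense partners 11 in the authors' deposited table, and anti-near only hosts 296 under quantile normalization. Leaving out 1 library gave 6 to 27, 74 to 217 and 1 to 7, and for ecd RNAi against control 227 to 269, 1839 to 2134 and 41 to 47. The replicate block gave 251 anti-over hosts, 2072 anti-near only hosts and 45 partners with ecd RNAi; it ended the call of Zip99C, and in control and ecd RNAi libraries alone, an alternative added after seeing the data, CG31191 was called (adjusted p = 0.0307). Of 776 values of named genes, 743 kept their call, 15 lost it, 9 gained it and 9 turned sign, all in genes not called with ecd RNAi: mute (-0.067 to 0.00849 without 1 library, 0.0444 under quantile normalization, 0.0639 without replicates 3 and 4 of control and ecd RNAi), CG6878 (-0.124 to 0.0219 without 1 library, 0.0829 without those 4), hdly (0.0494 under quantile normalization), CG5989 (-0.137 to 0.00212 without 1 library) and CG8366 (-0.135 to 0.038 without 1 library, 0.0455 without those 4), as log2 fold changes. The causes were not tested.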
